A study of Mus musculus with 29 samples.

Results

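Imprinted genes were followed over mouse embryonic stem cells (mESC) and 3 later neural stages. The list named 10 genes, Peg3, Peg10, Plagl1, Impact, Ndn, Dlk1, Meg3, Igf2, H19 and Grb10, and a gene was taken where an array feature (a transcript cluster, a group of probes summarised to 1 value) carried that symbol alone. The rule found 8 of the 10 genes, out of 30142 genes with such a cluster. The cluster of H19 carried 2 symbols and that of Meg3 carried 4, so no value is given for either. The list had been drawn up with the remark that several of these genes were lower in BERKO arrays, so every difference between genotypes in these 8 genes is a description here, with no test.

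RNA of 29 samples was measured on 1 Clariom D (MTA 1.0) array each, 14 wild type (WT) and 15 BERKO, a line labelled as a knockout of estrogen receptor beta (ERb, gene Esr2). All cultures were feeder-free. The mESC were kept with LIF, neural precursor cells (NPC) were expanded with FGFb, midbrain neural precursors (mDPC) were kept with FGFb, FGF8b and Shh, and mature midbrain neurons (MN) were kept with N2 and ascorbic acid. The groups were WT and BERKO mESC, untreated, and WT and BERKO NPC, mDPC and MN, each untreated or with 0.5 nM LY3201, an ERb-selective agonist. NPC and mDPC received it, or DMSO as vehicle, for 4 days; how long MN were treated is not given in the sources used here. Each of the 14 groups held 2 arrays, except untreated BERKO MN with 3, and the labels call them biological replicates. Whether each genotype was more than 1 line or clone, and the age or strain of its source, were not given in the sources used here.

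Genomic imprinting marks a gene by DNA methylation according to the parent it came from, so that in most tissues only the maternal or only the paternal copy is transcribed. Imprinted genes lie in clusters that share a control region, and many act on growth, placenta and brain. Peg3, Peg10, Plagl1, Impact, Ndn, Dlk1 and Igf2 are transcribed mainly from the paternal copy, and Grb10 from the maternal copy in most tissues and from the paternal copy in neurons. The arrays measured the amount of RNA and not the copy it came from, so imprinting itself was not observed. In whole cultures, fewer cells of a type and less RNA per cell cannot be told apart.

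Promoter windows of 6 of the 8 genes were taken from RefSeq (GRCm38.p6). Peg10 had no entry among the windows. The chromosome of Impact was left out when windows of the 8 genes were taken, though not from the set of all windows. Peg3 and Plagl1 had lower values at every stage in BERKO arrays, as did Peg10 and Impact, for which no window was taken. Grb10 was higher in BERKO mESC and NPC. The 4 windows below, each the 250 bases before a start site, are those of Peg3 and Plagl1 and of the 2 listed starts of Grb10. They are written 5′ to 3′ on the strand of the gene, with each CG dinucleotide, the target of the methylation mark, in capitals. Peg3 lies on the minus strand (window chr7:6730420-6730669), Plagl1 on the plus strand (chr10:13090582-13090831) and Grb10 on the minus strand (first start chr11:12037421-12037670, second start chr11:12027972-12028221).
Peg3: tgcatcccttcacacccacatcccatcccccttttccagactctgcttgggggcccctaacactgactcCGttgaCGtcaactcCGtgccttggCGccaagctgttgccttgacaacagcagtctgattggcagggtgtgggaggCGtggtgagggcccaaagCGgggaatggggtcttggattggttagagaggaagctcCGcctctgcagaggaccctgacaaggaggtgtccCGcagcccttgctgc
Plagl1: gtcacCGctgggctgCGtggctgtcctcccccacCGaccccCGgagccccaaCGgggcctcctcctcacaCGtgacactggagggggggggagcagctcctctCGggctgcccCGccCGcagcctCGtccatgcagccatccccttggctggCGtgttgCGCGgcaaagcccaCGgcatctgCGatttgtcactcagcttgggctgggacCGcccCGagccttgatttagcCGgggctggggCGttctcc
Grb10, first start: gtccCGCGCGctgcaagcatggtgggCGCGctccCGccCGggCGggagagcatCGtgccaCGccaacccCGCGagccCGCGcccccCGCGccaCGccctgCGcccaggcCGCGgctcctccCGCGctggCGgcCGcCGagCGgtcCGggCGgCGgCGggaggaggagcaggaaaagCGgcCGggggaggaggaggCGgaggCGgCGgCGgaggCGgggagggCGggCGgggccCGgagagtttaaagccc
Grb10, second start: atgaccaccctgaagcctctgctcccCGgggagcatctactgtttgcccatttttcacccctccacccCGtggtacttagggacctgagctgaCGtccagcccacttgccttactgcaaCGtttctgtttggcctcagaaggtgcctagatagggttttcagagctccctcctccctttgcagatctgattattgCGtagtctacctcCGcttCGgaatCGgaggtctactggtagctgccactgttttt
The first Grb10 window held 40 CG dinucleotides, more than 98.7% of the 32851 promoter windows of this length, whose median was 6. Plagl1 held 19, and Peg3 and the second Grb10 window held 8 each. The letters TGCCGC, bound by the imprint-protecting factor ZFP57 when methylated, or their reverse complement GCGGCA, occurred in 1 of the 10 windows of these genes, that of Plagl1, against 8.68% of all windows. The array clusters do not tell which start was in use.

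The values are log2 signals, on which a difference of 1 is a ratio of 2. Array medians over all clusters were 3.52 to 3.74, and the 95th percentile of the negative control probes was 6.63 to 7.66. A value under that percentile is not clearly told from background. Peg3, Peg10 and Impact exceeded it in all 29 arrays, Ndn in 25, Plagl1 in 9 and Grb10 in 2, while Dlk1 and Igf2 did so in 0 of the 29. All 8 passed the filter for testing, which asked for a signal above the array median in at least 2 arrays, and so did 22063 of the 30142 genes. Levels of different genes are not compared, since their probes differ.

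The stage labels were checked on marker genes. The mean signal of 8 pluripotency genes was 13.76 to 13.81 in mESC arrays and at most 4.71 in the others. Of 8 genes of midbrain dopaminergic cells, 7 (Th, Slc6a3, Nr4a2, Pitx3, Lmx1a, Foxa2 and En1) stayed below the negative control percentile in every array, MN included. The mean of 8 astrocyte markers was 10.85 to 11.1 in mDPC and 10.89 to 11.41 in MN. Esr2, the targeted gene, gave a higher signal in all 15 BERKO arrays (3.8 to 4.46) than in the 14 WT arrays (3.21 to 3.47). Both ranges were near the medians of the negative controls (3.75 to 4.24), and the direction goes against the label. The word BERKO is therefore used only as the label of an array, and each direction between genotypes rests on it.

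**Figure D1:**
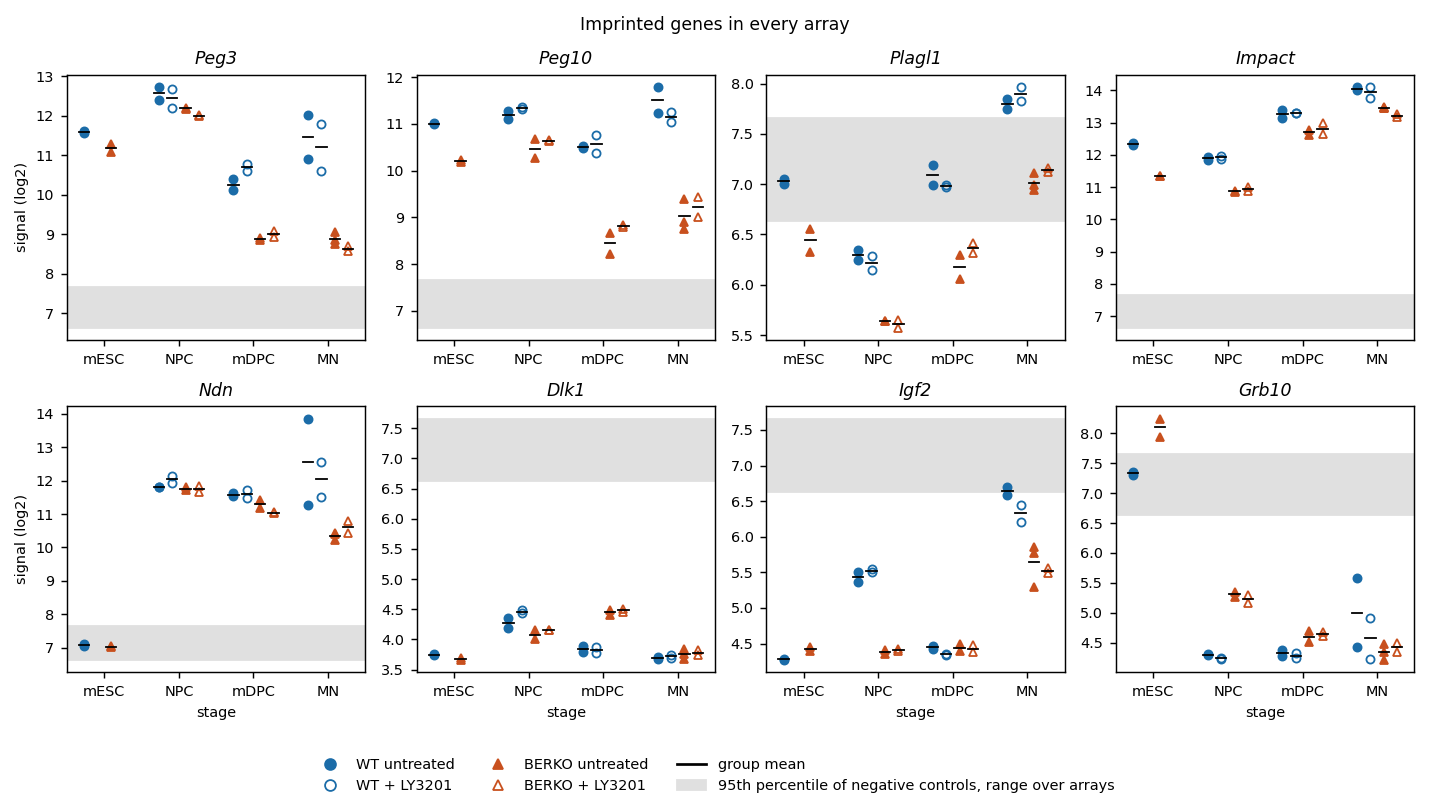
Signal (log2, vertical axis) of 8 imprinted genes in each of 29 arrays by stage. Circles are WT and triangles BERKO arrays, open symbols received LY3201, bars are group means of 2 or 3 arrays and the grey band is the range over arrays of the 95th percentile of negative controls (6.63 to 7.66). Peg3, Peg10, Plagl1 and Impact lie lower in BERKO arrays at each stage, and Grb10 lies highest in mESC. Plagl1 exceeds the percentile of its array only in MN.

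Peg3 encodes a large zinc finger protein. In mESC its signal was 11.57 and 11.61 in WT arrays and 11.09 and 11.28 in BERKO arrays. The 4 WT NPC arrays, with and without LY3201, spanned 12.21 to 12.74 and the 4 BERKO NPC arrays 11.99 to 12.2. In mDPC the ranges were 10.12 to 10.78 and 8.86 to 9.08, and in MN 10.6 to 12.02 and 8.57 to 9.06. The BERKO arrays lay below every WT array of their stage at all 4 stages, by a narrow gap in NPC and by a wide one in mDPC and MN. The difference between the untreated groups was -0.41 ± 0.31 (SE of the fit over all arrays, as throughout) in mESC, -0.38 ± 0.31 in NPC, -1.37 ± 0.31 in mDPC and -2.57 ± 0.28 in MN.

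Plagl1, also called Zac1, encodes a zinc finger transcription factor that restrains the cell cycle and acts on other imprinted genes. WT arrays gave 7 and 7.05 in mESC, 6.15 to 6.35 in NPC, 6.97 to 7.19 in mDPC and 7.75 to 7.97 in MN. BERKO arrays gave 6.33 and 6.55, then 5.57 to 5.65, 6.06 to 6.42 and 6.94 to 7.16. The ranges never overlapped within a stage, and their distance was similar at each: the differences of the untreated groups were between -0.91 ± 0.1 in mDPC and -0.59 ± 0.1 in mESC. The 9 arrays above the negative control percentile are the MN arrays. All Plagl1 values in mESC, NPC and mDPC, in both genotypes, lie below it and are not clearly told from background.

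Peg10 derives from a retrotransposon and is needed for the placenta. WT arrays spanned 10.99 to 11.01 in mESC, 11.11 to 11.36 in NPC, 10.37 to 10.77 in mDPC and 11.04 to 11.8 in MN. BERKO arrays spanned 10.19 to 10.23, 10.27 to 10.68, 8.21 to 8.83 and 8.76 to 9.43. The genotypes were apart at each stage, and the untreated difference was -0.79 ± 0.21 in mESC, -0.71 ± 0.21 in NPC, -2.06 ± 0.21 in mDPC and -2.49 ± 0.19 in MN.

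Impact encodes a protein that restrains the stress kinase GCN2 and is abundant in neurons. Its signal was 12.31 and 12.36 in WT mESC against 11.34 and 11.35 in BERKO mESC. In NPC it was 11.85 to 11.98 against 10.85 to 11.02, in mDPC 13.16 to 13.4 against 12.63 to 12.99, and in MN 13.76 to 14.12 against 13.18 to 13.48. Impact thus also lay lower in each BERKO array at all 4 stages, and the differences of untreated groups ran from -1.02 ± 0.11 in NPC to -0.58 ± 0.11 in mDPC.

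Ndn encodes necdin, a protein of the MAGE family found in postmitotic neurons. In mESC it was near background, at 7.04 and 7.12 in WT and 7.01 and 7.04 in BERKO arrays. In NPC the genotypes overlapped (11.82 to 12.14 and 11.65 to 11.85), in mDPC they did not (11.48 to 11.73 and 11.02 to 11.43), and in MN they lay further apart (11.28 to 13.86 and 10.23 to 10.78). The differences between untreated groups were -0.06 in mESC, -0.07 in NPC and -0.28 in mDPC, with an SE of 0.48 each, and -2.22 ± 0.43 in MN. The spread behind these SE is shared by all groups, while the untreated WT MN arrays lay far apart (SD 1.82). In untreated mDPC the SD was 0.08 in WT and 0.17 in BERKO arrays. The SE therefore does not rank the stages by certainty.

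Igf2, the fetal growth factor that signals through the IGF1 receptor, was above 5 in WT NPC and in MN of both genotypes. WT NPC arrays gave 5.36 to 5.55 and BERKO NPC arrays 4.36 to 4.43. In MN the values were 6.21 to 6.7 and 5.3 to 5.85, whereas mDPC arrays overlapped at 4.34 to 4.47 and 4.38 to 4.49. In mESC, BERKO arrays (4.4 and 4.45) were slightly above WT arrays (4.27 and 4.29). All these values lie below the negative control percentile of their array.

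Grb10, an adaptor protein that restrains signalling by the insulin and IGF receptors, went the other way in the early stages. Its signal was 7.31 and 7.36 in WT mESC and 7.94 and 8.25 in BERKO mESC. WT NPC arrays gave 4.23 to 4.31 and BERKO NPC arrays 5.17 to 5.34. The differences of the untreated groups were 0.76 ± 0.24 in mESC, 1.01 ± 0.24 in NPC and 0.28 ± 0.24 in mDPC. In MN the arrays overlapped, from 4.22 to 5.58 in WT and from 4.21 to 4.49 in BERKO. Only the 2 BERKO mESC arrays exceeded the negative control percentile. All other Grb10 values, WT mESC included, are not clearly told from background.

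Dlk1, a transmembrane ligand related to those of Notch, stayed between 3.66 and 4.51 in every array, within the range of the negative controls. BERKO mDPC arrays (4.41 to 4.51) were above WT mDPC arrays (3.77 to 3.89), and in NPC they were below them (4 to 4.16 against 4.19 to 4.49). The untreated differences were 0.61 ± 0.08 in mDPC and -0.2 ± 0.08 in NPC. These are differences among signals that are not clearly told from background.

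Counted over the 8 genes, every BERKO array of an untreated group lay below both WT arrays for 6 genes in mESC, 7 in NPC, 5 in mDPC and 6 in MN. It lay above both for 2, 1, 2 and 0 genes. Of all 22063 genes, 4.21% passed the genotype test in mESC, 15.7% in NPC, 13.8% in mDPC and 20.8% in MN (limma, adjusted p under 0.05, either direction). In BERKO arrays 2.53%, 5.08%, 5.32% and 7.31% of all genes were called lower and 1.68%, 10.6%, 8.51% and 13.5% higher, in the same order. The median difference of the 8 was -0.24 in mESC, -0.52 in NPC, -0.43 in mDPC and -0.89 in MN, against 0.01 to 0.03 over all genes. With LY3201 the counts below were 7 in NPC, 5 in mDPC and 6 in MN, and the shares of all genes called were 10.4%, 15.3% and 19.6% (lower 5.81%, 8.1% and 10.6%, higher 4.56%, 7.23% and 9.01%). The shares of all genes are of limma calls, a different measure from groups that do not overlap. The share of all genes without overlap was not counted, so the counts and shares cannot be set against each other. Since the list was chosen with this contrast in view, nothing is read from these counts.

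**Figure D2:**
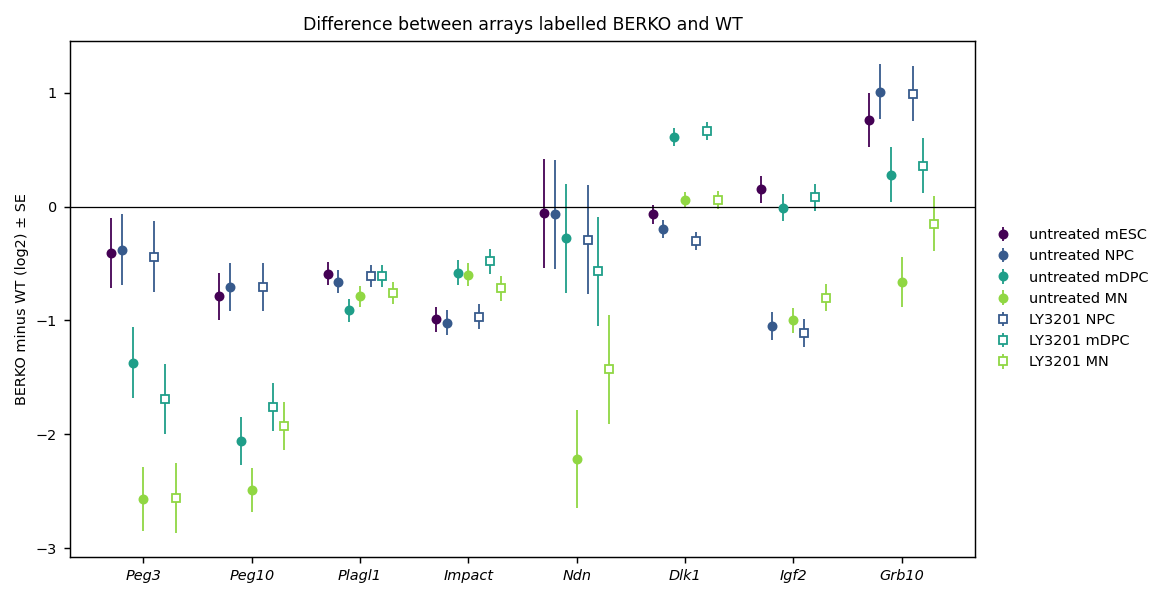
Difference between BERKO and WT group means (log2, vertical axis, bars are ± 1 SE of the fit) of 8 imprinted genes at each stage, untreated (filled circles) or with LY3201 (open squares). Peg3, Peg10, Plagl1 and Impact lie below 0 in all 7 comparisons, between -2.57 and -0.38, and Grb10 lies above 0 in mESC and NPC. Signals of Plagl1 before MN, and of Grb10 outside BERKO mESC, were below the negative control percentile.

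For Peg3, Ndn and Grb10, arrays of 1 group lay furthest apart in WT MN. Of the 2 untreated WT MN arrays, array 2 gave 12.02 for Peg3 and array 1 gave 10.9. The same arrays gave 13.86 and 11.28 for Ndn, and 5.58 and 4.43 for Grb10. Of the 2 WT MN arrays with LY3201, array 2 gave 11.8 and array 1 gave 10.6 for Peg3, 12.57 and 11.5 for Ndn, and 4.92 and 4.22 for Grb10. Thus these 3 genes were higher in the same array of each pair. The array numbers are only names and pair nothing across groups.

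The mean of 10 neuronal markers was 9.88 and 8.11 in the untreated WT MN arrays 2 and 1, and 8.93 and 7.98 in those with LY3201. In the 5 BERKO MN arrays it was 7.49 to 7.81. It was thus highest in the 2 arrays that were highest for Peg3, Ndn and Grb10, and Rbfox3 alone of the 10 markers stayed below the negative control percentile in all arrays. Before MN the mean was 6.56 to 6.64 in WT and 6.79 in BERKO mESC, 7.4 to 7.45 and 7.65 to 7.74 in NPC, and 7.55 to 7.64 and 7.02 to 7.12 in mDPC. It thus lay lower in BERKO arrays in mDPC, as Peg3 and Peg10 did, and higher in mESC and NPC. The part of neuronal RNA in these values was not tested. Without untreated WT MN array 2, the Peg3 difference between genotypes in untreated MN was -2.01, that of Ndn -0.93 and that of Grb10 -0.08. With all arrays these were -2.57, -2.22 and -0.66, so each kept its sign and became smaller.

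Peg10, Plagl1, Impact and Igf2 did not show array 2 the higher in both pairs. The untreated WT MN arrays 1 and 2 gave 11.23 and 11.8 for Peg10, and those with LY3201 gave 11.26 and 11.04. For Plagl1 the 4 WT arrays gave 7.75, 7.85, 7.97 and 7.83, and for Impact 14.1, 14.03, 13.76 and 14.12. The 5 BERKO arrays, 3 untreated and 2 with LY3201, gave 8.76, 9.39, 8.91, 9.01 and 9.43 for Peg10 and 7.11, 6.94, 6.99, 7.12 and 7.16 for Plagl1. The 4 WT arrays were above all 5 BERKO arrays for each of these 4 genes.

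For Igf2 the 4 WT MN arrays gave 6.58, 6.7, 6.44 and 6.21, and the 5 BERKO arrays 5.3, 5.85, 5.77, 5.49 and 5.56. Markers of mesenchyme and fibroblasts, 10 genes such as Col1a1 and Dcn, differed along with it. Their mean was 8.06 to 8.15 in WT NPC arrays against 5.52 to 5.75 in BERKO NPC arrays, and 6.78 to 7.33 against 4.32 to 4.58 in MN. In mDPC, where Igf2 overlapped, the marker means were 5.33 to 5.46 and 4.63 to 4.8, and in mESC they were 4.27 to 4.31 and 4.26 to 4.35. Their part in the Igf2 values was not tested, and 3 of the 10 (Col1a2, Pdgfrb and Twist1) were below the negative control percentile in all arrays. Other marker lists also differed in MN: 5 ependymal markers averaged 9.47 to 9.63 in WT and 10.24 to 10.93 in BERKO arrays, and 7 proliferation genes 7.53 to 8.21 and 8.32 to 8.47. All 6 microglial markers stayed below the negative control percentile.

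**Figure D3:**
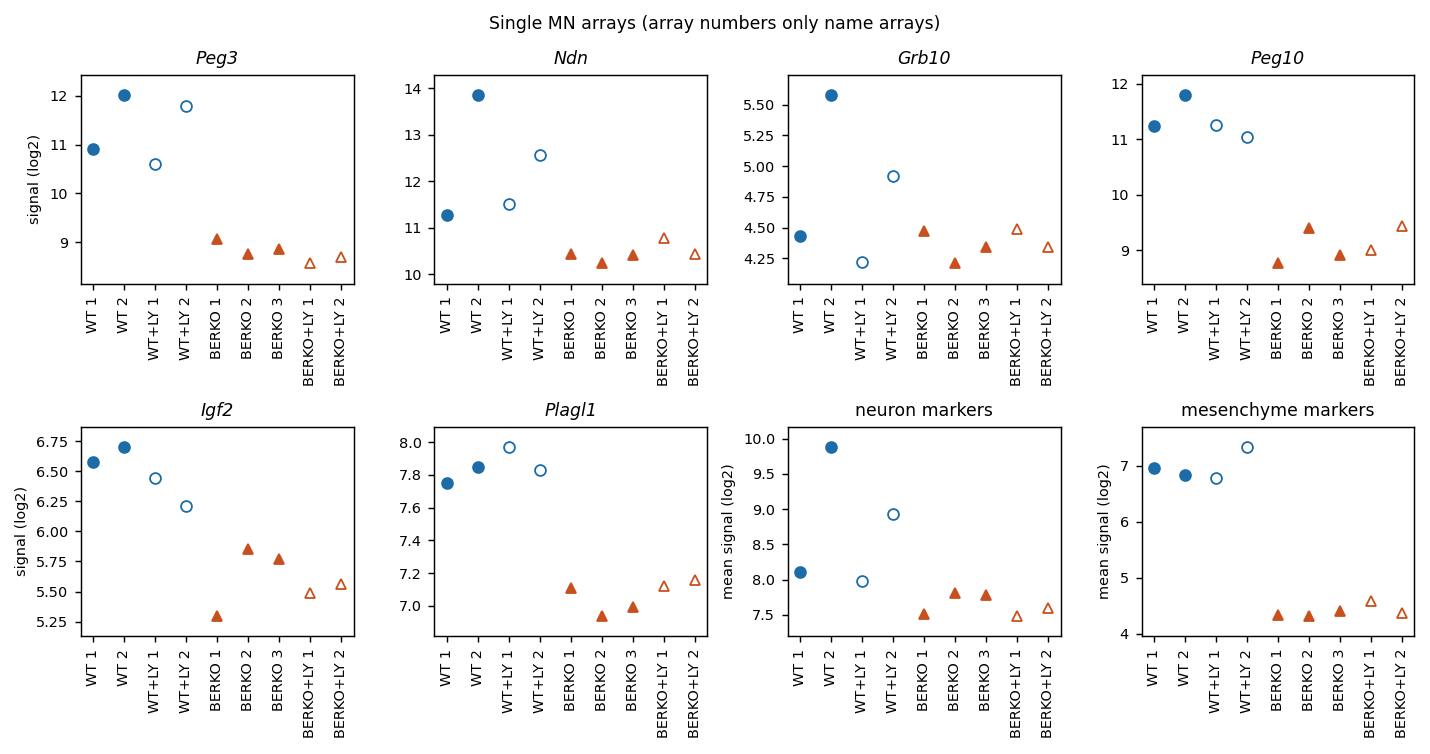
Signal (log2) of 6 imprinted genes and mean signal of 10 neuronal and 10 mesenchymal markers in each of the 9 MN arrays. Circles are WT and triangles BERKO arrays, open symbols received LY3201. Peg3, Ndn, Grb10 and the neuronal markers are higher in array 2 of both WT pairs, and the mesenchymal markers are at 6.78 to 7.33 in WT and 4.32 to 4.58 in BERKO arrays.

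Steps between consecutive stages compare arrays of 1 genotype and were tested with limma over all 22063 genes. On the way from mESC to NPC in WT arrays, 4 of the 8 genes rose (Ndn, Igf2, Peg3 and Dlk1), 3 fell (Grb10, Plagl1 and Impact) and Peg10 was not called. Of all genes 62.9% were called at this step, 27.9% as rising and 35% as falling. Ndn rose by 4.74 ± 0.48 (adjusted p = 3.11e-08) and Grb10 fell by 3.03 ± 0.24 (adjusted p = 1.11e-09). All Grb10 values in WT arrays, and those of BERKO arrays after mESC, lie below the negative control percentile. Igf2 rose by 1.16 ± 0.12, Peg3 by 0.98 ± 0.31 and Dlk1 by 0.53 ± 0.08. The Peg3 call was lost without WT NPC array 2 (0.82, adjusted p = 0.0747). Under quantile normalization between arrays, Impact was no longer called (-0.10, adjusted p = 0.496) and Peg10 was (0.49, adjusted p = 0.0492).

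In BERKO arrays the same step raised Ndn by 4.73 ± 0.48, Peg3 by 1 ± 0.31 and Dlk1 by 0.4 ± 0.08, and lowered Grb10, Plagl1 and Impact, with Peg10 and Igf2 not called. Grb10 fell by 2.79 ± 0.24 (limma, adjusted p = 4.06e-09). Igf2 differed by -0.05 ± 0.12 (adjusted p = 0.774). Of all genes 63.5% were called, 27.7% as rising and 35.9% as falling. The Peg3 call was lost without BERKO mESC array 1 (0.90, adjusted p = 0.0512). Whether a step differed between genotypes was not tested, since that difference is made of the genotype contrasts that chose the genes.

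From NPC to mDPC in WT arrays, Impact (1.39 ± 0.11, limma, adjusted p = 1.55e-08) and Plagl1 (0.79 ± 0.1) rose, and Peg3, Igf2, Peg10 and Dlk1 fell, while 30.4% of all genes were called (14.6% rose and 15.8% fell). Peg3 fell by 2.32 ± 0.31 (adjusted p = 7e-06), and the changes were -0.99 ± 0.12 for Igf2, -0.69 ± 0.21 for Peg10 and -0.43 ± 0.08 for Dlk1. The Peg10 call was lost without WT NPC array 2 or without either WT mDPC array (adjusted p = 0.0644 to 0.121). In BERKO arrays Impact rose by 1.83 ± 0.11, Plagl1 by 0.54 ± 0.1 and Dlk1 by 0.38 ± 0.08, and 35.4% of all genes were called (16.5% rose and 18.9% fell). Peg3 fell by 3.3 ± 0.31 (adjusted p = 4.67e-08), and Peg10 (-2.04 ± 0.21) and Grb10 (-0.7 ± 0.24) fell as well. The Grb10 call was lost without any 1 of the 4 arrays (adjusted p = 0.0584 to 0.158).

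From mDPC to MN in WT arrays, 6 of the 8 genes rose, while 42% of all genes were called (18% rose and 24% fell). Ndn and Dlk1 were not called. Igf2 rose by 2.19 ± 0.12 (limma, adjusted p = 3.01e-11), Peg3 by 1.21 ± 0.31, Peg10 by 1.01 ± 0.21, Impact by 0.78 ± 0.11, Plagl1 by 0.71 ± 0.1 and Grb10 by 0.68 ± 0.24. Without WT MN array 2, the array with high neuronal markers, Peg3 (0.65, adjusted p = 0.116) and Grb10 (0.11, adjusted p = 0.729) were not called. Without WT MN array 1, Ndn was called (2.27, adjusted p = 1.57e-06), and its value with both arrays was 0.99 ± 0.48 (adjusted p = 0.107). The Grb10 call was also lost without either WT mDPC array, and both the Peg3 and Grb10 calls when only the compared groups were fitted.

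In BERKO arrays 4 genes rose at that step and 1 fell, and 50.9% of all genes were called (20.1% rose and 30.8% fell). Igf2 rose by 1.2 ± 0.11 (limma, adjusted p = 3.25e-08), Plagl1 by 0.83 ± 0.09, Impact by 0.76 ± 0.1 and Peg10 by 0.58 ± 0.19, and Dlk1 changed by -0.7 ± 0.07. Peg3 differed by 0.01 ± 0.28 (adjusted p = 0.986). The Peg10 call was lost without BERKO mDPC array 1 (0.36, adjusted p = 0.243) and without BERKO MN array 2 (0.40, adjusted p = 0.091). Ndn, at -0.95 ± 0.43 (adjusted p = 0.0759), was called only when the compared groups were fitted alone (adjusted p = 0.000895). Plagl1 and Impact thus passed the test with the same sign at all 3 steps in both genotypes (down, up and up), apart from the loss of Impact in WT arrays under quantile normalization at the first step. The Plagl1 values in mESC, NPC and mDPC lay below the negative control percentile.

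In the order of the 14 group means, Peg3 ran from 8.64 in BERKO MN with LY3201 to 12.57 in untreated WT NPC, and arrays of neighbouring groups overlapped in 6 of 13 pairs. Peg10 ran from 8.44 in BERKO mDPC to 11.52 in WT MN (7 of 13 overlapped) and Impact from 10.87 in BERKO NPC to 14.06 in WT MN (6 of 13). Ndn was lowest in BERKO mESC (7.02) and highest in WT MN (12.57), with 7 overlapping pairs. Plagl1 was lowest in BERKO NPC with LY3201 (5.61) and highest in WT MN with LY3201 (7.9), with 10. Igf2 ran from 4.28 in WT mESC to 6.64 in WT MN (9 pairs), Grb10 from 4.24 in WT NPC with LY3201 to 8.1 in BERKO mESC (11 pairs), and Dlk1 from 3.67 to 4.48 (10 pairs).

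LY3201 left none of the 8 genes past the threshold in any of 6 comparisons with untreated arrays of the same stage and genotype. Of these 48 limma tests 0 were called, 3 had an unadjusted p under 0.05 and the lowest adjusted p was 0.246. The differences ran from -0.53 to 0.44 with SE of 0.07 to 0.48, so that changes within a few of these SE were not detectable with 2 or 3 arrays a group. Peg3 in WT mDPC, for example, was 10.12 and 10.39 untreated and 10.61 and 10.78 with LY3201. Over all genes 0.00453%, 0.0635% and 1.83% were called in WT NPC, mDPC and MN, and 0%, 0.113% and 0.344% in BERKO arrays. The test of whether the LY3201 effect differed between genotypes called 0 of 24, with 1 unadjusted p under 0.05 and a lowest adjusted p of 0.391, against 0.499%, 0% and 0.63% of all genes in NPC, mDPC and MN.

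WT MN array 1 decided this count in part. Without it, the LY3201 effect in WT MN passed the test for Ndn (-1.82, limma, adjusted p = 0.00108) and Grb10 (-1.01, adjusted p = 0.00834), as did the difference of effects between genotypes (2.08, adjusted p = 0.00633, and 1.09, adjusted p = 0.0356). The untreated WT group then consists of array 2, which had the highest neuronal markers of the 9 MN arrays.

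Genes beside the 8 were tested between genotypes, on lists drawn up with earlier results of these data known. Of 29 listed genes of the same loci, 22 had a cluster and 16 were tested. Sgce, which encodes epsilon-sarcoglycan and is the neighbour of Peg10 with which it shares a control region, was 6.21 and 6.22 in WT mESC and 6.3 and 6.52 in BERKO mESC. It rose from mESC to NPC by 3.84 ± 0.09 in WT arrays and 3.31 ± 0.09 in BERKO arrays. WT arrays gave 10.05 to 10.16 in NPC, 10.46 to 10.57 in mDPC and 10.83 to 11.1 in MN, and BERKO arrays 9.58 to 9.83, 9.34 to 9.46 and 9.51 to 9.87. The genotypes did not overlap at these 3 stages. Sgce was lower in untreated BERKO arrays by -1.13 ± 0.09 in mDPC (limma, adjusted p = 3.95e-08) and -1.26 ± 0.08 in MN (adjusted p = 1.38e-09). With LY3201 the differences were -1.1 ± 0.09 and -1.37 ± 0.09. In untreated NPC it was lower by -0.34 ± 0.09 (adjusted p = 0.0166), a call lost without WT NPC array 1 or 2 or without BERKO NPC array 2 (adjusted p = 0.0808 to 0.245). In mESC, where the Peg10 difference was -0.79, Sgce was 0.2 higher (adjusted p = 0.279). Its mESC signals were below the negative control percentile of their arrays (7.346 to 7.661), so no difference in Sgce can be read there.

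Usp29, which lies next to Peg3 and shares its promoter region, exceeded the negative control percentile in 1 array, untreated WT MN array 2 (6.87 against 6.79). The WT MN arrays gave 5.12 and 6.87 untreated and 4.87 and 6.29 with LY3201, with array 2 the higher of each pair as for Peg3, and the BERKO MN arrays gave 4.37 to 4.78. Its difference in untreated MN, -1.36 ± 0.36 (limma, adjusted p = 0.00911), was not called without WT MN array 2 (-0.48, adjusted p = 0.367). Of the genes beside Grb10, the actin regulator Cobl was 5.56 and 5.87 in WT MN and 4.67 to 4.72 in untreated BERKO MN, a difference of -1.02 ± 0.09 (adjusted p = 7.33e-08) between signals below the negative control percentile. Beside Ndn, Magel2 was lower in BERKO MN (-0.4 ± 0.1, adjusted p = 0.00728; 0.0534 without WT MN array 2).

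Among imprinted genes outside the list, more were called higher than lower in untreated BERKO NPC and mDPC, as was also so among all genes. In MN slightly more of them were called lower than higher. With 32 imprinted genes of other loci, of which 27 were tested, 43 genes were tested in all. In untreated arrays BERKO was higher for 1 and lower for 1 of the 43 in mESC, higher for 7 and lower for 4 in NPC, 7 and 2 in mDPC, and 7 and 9 in MN. Of all genes, BERKO was higher for 1.68%, 10.6%, 8.51% and 13.5% and lower for 2.53%, 5.08%, 5.32% and 7.31% at these stages. Together 2, 11, 9 and 16 of the 43 passed, beside 4.21%, 15.7%, 13.8% and 20.8% of all genes, so the mESC count lay near the background. The median difference over the 43 was 0, 0.04, 0.03 and -0.05 in the same order, against 0.03, 0.03, 0.02 and 0.01 over all genes. When only the compared groups were fitted, 6 of 43 passed in NPC and 10 in MN. The share of all genes called in those fits was not counted, so these counts have no background beside them. With LY3201, BERKO was higher for 4 and lower for 3 of the 43 in NPC, 5 and 5 in mDPC, and 7 and 10 in MN. Of all genes, 4.56%, 7.23% and 9.01% were then higher and 5.81%, 8.1% and 10.6% lower.

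Nnat, which encodes the neuronal membrane proteolipid neuronatin, was higher in BERKO arrays. WT arrays gave 12.74 and 12.8 in untreated NPC, 13.25 and 13.27 in mDPC and 12.67 and 12.9 in MN, and BERKO arrays 13.94 and 13.97, 15.14 and 15.21, and 13.57 to 13.86. The differences were 1.18 ± 0.16, 1.91 ± 0.16 and 0.95 ± 0.15 (limma, adjusted p = 4.24e-05, 8.62e-08 and 9.72e-05). Rasgrf1, an exchange factor for Ras, was 3.38 to 3.61 in WT arrays of these stages, and it was higher in BERKO mDPC by 1.49 ± 0.11 and in BERKO MN by 2.12 ± 0.1, where it reached 5.66. Airn, the noncoding RNA that silences Igf2r on the same copy, was lower in untreated BERKO NPC (-0.71 ± 0.15), mDPC (-1.11 ± 0.15) and MN (-0.62 ± 0.13). Igf2r, which takes IGF2 up for degradation, was 5.51 and 6.06 in WT MN and 6.59 to 6.74 in BERKO MN, a difference of 0.89 ± 0.18 (adjusted p = 0.00131; 0.0539 without WT MN array 1). Rasgrf1 and Airn stayed below the negative control percentile, so these are differences of low signals. Rasgrf1 exceeded the array median in only 9 arrays. It may thus have passed the filter only through the BERKO arrays where it was high, and its call is no independent support. The Igf2r values in untreated WT MN were below it too, and those in untreated BERKO MN were near it (6.632 to 6.745 in these arrays).

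In MN, Osbpl5 (-0.82 ± 0.09) and Tssc4 (0.86 ± 0.09), both of the imprinted domain next to that of Igf2, passed the test in opposite directions. Kcnk9, a potassium channel, was lower by -1.84 ± 0.43 in BERKO MN (limma, adjusted p = 0.00388), a call lost without WT MN array 2 (-0.74, adjusted p = 0.2). Kcnk9 exceeded the array median in only 5 arrays and Magel2 in 6, so both may have passed the filter only through arrays where they were high. Nap1l5 was higher in BERKO NPC (1.03 ± 0.18). In mESC, H13 was higher (0.62 ± 0.09) and Sfmbt2 lower (-0.82 ± 0.22), and the Sfmbt2 call was lost without any 1 of the 4 arrays (adjusted p = 0.0748 to 0.25).

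Along the stages the other imprinted genes moved in both directions. From mESC to NPC in WT arrays 19 of the 43 rose and 10 fell, and in BERKO arrays 21 rose and 11 fell. Of all genes, 27.9% rose and 35% fell at this step in WT arrays, and 27.7% and 35.9% in BERKO arrays. In WT arrays Nnat rose by 7.72 ± 0.16, Phlda2 fell by 6.5 ± 0.18, Sfmbt2 fell by 3.97 ± 0.22 and, beside Grb10, Cobl fell by 6.24 ± 0.1. From mDPC to MN, 13 rose and 8 fell in WT arrays and 15 rose and 14 fell in BERKO arrays, while 18% of all genes rose and 24% fell in WT arrays, and 20.1% and 30.8% in BERKO arrays. Mest fell at this step, by -1.65 ± 0.3 in WT and -2.26 ± 0.27 in BERKO arrays, and Atp10a rose by 3.05 ± 0.13 and 2.48 ± 0.11. With LY3201, 1 of the 43 was called in WT MN (Ddc, -0.6 ± 0.15, limma, adjusted p = 0.049) and 1 in BERKO MN (Slc22a2, -0.42 ± 0.09, adjusted p = 0.0486). Both calls were lost without filter (adjusted p = 0.0633 and 0.0628).

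A list of 14 genes that set or keep the imprint, among them the DNA methyltransferases and ZFP57, were mostly high in mESC. In both genotypes 13 of 14 fell from mESC to NPC and 1 rose, with medians of -2.88 in WT and -2.61 in BERKO arrays against -0.04 and -0.1 over all genes. Of all genes, 35% fell at this step in WT and 35.9% in BERKO arrays. In WT arrays the changes were -7.31 ± 0.15 for Dnmt3b, -6.27 ± 0.24 for Zfp57 and -5.12 ± 0.15 for Uhrf1. Between genotypes, Dppa3, which shields the maternal genome from demethylation in the zygote, was higher in BERKO mESC by 1.51 ± 0.15 (limma, adjusted p = 8.45e-06; 0.0859 when only the compared groups were fitted), at signals below the negative control percentile. Dnmt1, which copies methylation after replication, was higher in BERKO NPC by 0.79 ± 0.11 and in BERKO MN by 0.41 ± 0.1, and in mDPC it differed by -0.27 (adjusted p = 0.112). The mean of the 7 proliferation genes differed in the same direction as Dnmt1 at these 3 stages. It was 10.03 to 10.24 in WT and 10.73 to 11.08 in BERKO NPC, 5.86 to 6.1 and 4.72 to 4.89 in mDPC, and 7.53 to 8.21 and 8.32 to 8.47 in MN, and their part was not tested. In WT MN, LY3201 raised Dnmt3b (0.8 ± 0.15, adjusted p = 0.0129) and Uhrf1 (0.62 ± 0.15, adjusted p = 0.0379), calls that were lost without WT MN array 2 (adjusted p = 0.0563 and 0.163), without the LY3201 array 2 (0.119 and 0.283) and, for Uhrf1, also without WT MN array 1 (0.0859). The mean of the 7 proliferation genes was 7.53 and 7.76 in untreated WT MN and 8.03 and 8.21 with LY3201. Of these genes, 3 were called higher with LY3201, Top2a by 0.81 ± 0.12 (limma, adjusted p = 0.00582), Plk1 by 0.82 ± 0.16 (0.015) and Bub1 by 0.94 ± 0.15 (0.00582). Their part in the Dnmt3b and Uhrf1 values was not tested.

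Of 12 genes of the IGF pathway that Igf2 and Grb10 belong to, 9 were tested. Igf1, the other ligand, was lower in BERKO NPC (-1.11 ± 0.09, limma, adjusted p = 5.57e-08) and MN (-0.69 ± 0.08), at group means of at most 5.61, below the negative control percentile. Its receptor Igf1r was also lower in NPC (-0.58 ± 0.13) and MN (-0.61 ± 0.12). Igf2bp3, which binds IGF2 mRNA, differed by -1.41 ± 0.13 in NPC, -1.57 ± 0.13 in mDPC and -0.64 ± 0.12 in MN. Of the binding proteins, Igfbp4 was lower in mDPC (-2.09 ± 0.16) and MN (-1.44 ± 0.15), and Igfbp2 was higher by 0.98 ± 0.21 in mDPC and 0.91 ± 0.19 in MN. The adaptor Irs2 was higher by 1.76 ± 0.21 in NPC and 0.97 ± 0.21 in mDPC. In all, BERKO arrays were higher for 3 and lower for 3 of the 9 in NPC, for 2 and 4 in mDPC and for 2 and 5 in MN. Of all genes, 10.6% were higher and 5.08% lower in NPC, 8.51% and 5.32% in mDPC, and 13.5% and 7.31% in MN. The mesenchymal markers given with Igf2 differed between genotypes in the same stages. The Igf1r call in NPC was lost without WT NPC array 2 (adjusted p = 0.0668), the Irs2 call in mDPC without WT mDPC array 1 (0.0804), and the Igfbp2 calls in mDPC without WT mDPC array 2 (0.0629) or BERKO mDPC array 1 (0.0835) and in MN without WT MN array 1 (0.0649).

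For each of the 8 genes, the tested gene with the most similar profile was sought, by the root mean square difference of the 14 group means after each gene was centred on its own average. Nearest to Peg3 was Peg3os, its antisense RNA (0.48), and next Sall1 (0.63). Peg3os was also lower in BERKO arrays than in any WT array at each stage, with 7.79 to 8.89 in WT MN and 6.16 to 6.92 in BERKO MN. Nearest to Peg10 was Tenm3 (0.35), with group means of 8.06 in WT MN and 5.77 in BERKO MN. The nearest were Scarna2 for Plagl1 (0.28), Dapk1 for Impact (0.32), Psd3 for Ndn (0.35), Itih2 for Igf2 (0.21), Pik3cb for Grb10 (0.32) and Chst14 for Dlk1 (0.12). The smaller a gene's own span (0.81 for Dlk1, 5.55 for Ndn), the smaller this measure can be, and it was chosen on the same arrays, so it is a description. Where probes of Peg3os and Peg3 read overlapping transcripts, their signals cannot be told apart.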

How the data were processed

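RNA of 29 samples was measured on 1 array each. The log2 values deposited by the authors came from SST-RMA (Affymetrix Expression Console 1.4, per the labels). The submitters' processing notes further list RMA and Transcriptome Analysis Console, with no version. SST-RMA normalizes between arrays, so values compare a gene across arrays. The genome build of the array's clusters was not given in the sources used here.

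Among 72688 entries of the table there were 65956 transcript clusters and 5222 negative controls. The platform annotation gave 1 symbol to 30604 clusters (827 updated through RefSeq, GRCm38.p6) and several to 2146. The cluster with the highest mean was kept per gene. limma 3.58.1 in R 4.3.3 fitted 1 mean per group to all arrays (15 residual degrees of freedom, prior 3.303) for the 22063 genes above the array median in at least 2 arrays. The 22 contrasts were 2-sided, with Benjamini-Hochberg adjustment over all genes tested and a threshold of 0.05. The number of arrays limits the precision. The model was checked on simulated data.

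The genes, lists and tests were chosen with earlier results of these data known. The list of 43 other imprinted genes, those that keep the imprint and the IGF list hold genes known from textbooks. Named outside the 8 genes were up to 4 called genes per list and comparison with the largest change, and the most similar profiles. Magel2, Osbpl5, Tssc4, Igf1r, Airn in MN and Irs2 in mDPC fall outside this rule and were chosen after their values were seen. In each of 2 groups, a number in the title occurs on 2 arrays (BERKO mESC and WT NPC with LY3201). If such arrays share a culture, p-values measure only the spread between these samples, which may be technical. Alternatives were the filter, the normalization, the prior, the arrays fitted, averaging same-number arrays and leaving out each array.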

Additional observations from a re-analysis of the deposited data

Results flagged for a closer look

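For 2 genes a step between untreated group means of neighbouring stages ran in opposite directions in the 2 genotypes. In each genotype the untreated arrays of the 2 stages did not overlap. Arrays of different stages are separate samples and are not paired. The difference between genotypes of these steps was not tested. Dlk1, a Notch-related ligand with signals in the range of the negative controls, changed from NPC to mDPC by -0.43 in WT arrays and by 0.38 in BERKO arrays. Grb10, the adaptor that restrains insulin and IGF signalling, differed from mDPC to MN by 0.68 in WT arrays and by -0.26 in BERKO arrays (limma, adjusted p = 0.0301 and 0.339). The Grb10 value in WT arrays was 0.11 without WT MN array 2, so it rests largely on that array. All Grb10 signals in mDPC and MN lay below the negative control percentile of their arrays. WT MN array 1 with LY3201 gave 4.22 for Grb10, below the untreated WT mDPC arrays, so the WT direction does not extend to that array.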

How the results depend on the processing

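The 8 genes' counts of calls at the steps stayed within 1.5 times under each alternative run, and calls of single genes that were lost or gained stand beside their values in the report. Without WT MN array 1, 2 of the 8 were called for LY3201 in WT MN and for its difference between genotypes (0 with all arrays; leave-one-array-out 0 to 2 in both). Of the genotype differences of the 8, Grb10 in MN with LY3201 turned from -0.15 to 0.20 without WT array 2 of that group (-0.50 without array 1). Of the 43 other imprinted genes, 2 were called between genotypes in mESC, but 1 under quantile normalization, 0 with only the compared groups fitted and 1 with same-number arrays averaged (leaving out 1 array, 1 to 2). With only the compared groups fitted, which leaves fewer arrays, 6 in place of 11 were called in NPC, 10 in place of 16 in MN, 3 in place of 7 in NPC with LY3201 and 6 in place of 17 in MN with LY3201. Shares of all genes called in these fits were not counted. Leaving out 1 array gave 5 to 6 in NPC, 10 to 15 in MN, 4 to 6 in NPC, 6 to 8 in mDPC (10 with all arrays) and 10 to 15 in MN with LY3201; between WT NPC and mDPC 9 to 13, between BERKO NPC and mDPC 15 to 16 and between BERKO mDPC and MN 20 to 27. For LY3201 the 1 call in WT MN became 0 without filter, under quantile normalization and with the compared groups only (0 to 3 without 1 array), and the 1 call in BERKO MN became 0 under these, the 75th percentile filter and the trended robust prior (0 to 1). For the difference of LY3201 effects in MN it was 0 to 2. Quantile normalization moved the median of all genes by over 0.1 only between BERKO mESC and NPC (-0.098 to 0.013). The cause of these shifts was not tested.

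Using the next cluster of a gene was not run, since each of the 8 had 1 cluster. The 75th percentile filter left out Dlk1. No paired analysis was possible because replicate numbers were given in accession order and pair no samples.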
